A study of Mus musculus with 6 samples.

Results

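Interferon-stimulated genes are the genes that a cell switches on when interferon binds its receptors. A list of 38 of them was followed in epididymal white fat (eWAT, the visceral pad beside the epididymis) of mice that carry extra Blnc1 in adipose tissue and of wild-type mice. The list was fixed by name: 5 regulators, 2 RNA sensors, 20 effectors known mainly from the type I response, 9 GTPases and 2 chemokines known mainly from the interferon-gamma response. A member was measured where a row of the array named that gene alone, and a gene with several such rows was taken by the row with the highest mean over all 6 arrays. By this rule 34 of the 38 members had values, among 22180 genes with a row of their own on the platform. Ifi44 had no row, and Oas1a, Ifi27l2a and Gbp2 appeared only in rows that also name Oas1g, Ifi27l2b and Gbp2b, so these 4 are not given values here.

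Type I interferons signal through the receptor chains Ifnar1 and Ifnar2 to a complex that contains Stat2 and Irf9 and binds the interferon-stimulated response element (ISRE). Interferon-gamma, made chiefly by T cells and natural killer cells, signals through Ifngr1 and Ifngr2 to the gamma-activated site (GAS) and induces Irf1, guanylate-binding proteins, immunity-related GTPases and the T cell attractants Cxcl9 and Cxcl10. Many genes answer to both. In obese visceral fat, macrophages and T cells accumulate, and interferon-gamma made there acts on adipocytes as well as on immune cells.

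The wild-type group (WT) and the Blnc1 adipose-specific transgenic group (Tg) held 3 arrays each, numbered 1 to 3, which the labels call biological replicates. All 6 mice were male C57BL/6 animals aged 8 months that had eaten the high-fat diet D12492 for 21 weeks. Total RNA was hybridised to Affymetrix whole-transcript arrays, and all values below are on the deposited log2 scale, where a difference of 1 is a factor of 2. Blnc1, a long noncoding RNA, was described in thermogenic fat. The promoter that drives the transgene is not given in the sources used here, and no row carries the name Blnc1, so the genotype was not checked on the arrays.

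Array medians lay between 2.64 and 2.75, and Pearson's r between any pair of arrays, across rows that are not independent replicates, lay between 0.979 and 0.990. All 8 white adipocyte markers, among them Adipoq and Plin1, read above the median signal of all rows. Transcripts of the neighbouring reproductive tract set some arrays apart. The summed linear signal of 13 epididymis genes was 2122 in Tg 2 against 31.6 to 41.7 in the other 5 arrays, and Spink8, another gene of that tract picked after its values were seen, read 6.55 in WT 2 and 8.09 in WT 3 against 1.21 in WT 1, 1.17 in Tg 1, 2.53 in Tg 2 and 1.16 in Tg 3. Tg 2 thus stands apart by the sum of the list, while WT 2 and WT 3, with sums of 40.0 and 33.2, do not. WT 2 and WT 3 stand apart by single genes picked after their values were seen. These are Spink8 and Serpina1f, the latter at 6.58 in WT 2 and 8.09 in WT 3, whereas Lcn9 read 0.91 and 1.11 there. Tg 1 was not free of tract transcripts by every gene, at the upper end of the range of 31.6 to 41.7. Adam7, also picked after its values were seen, read 2.44 in Tg 1 beside 2.69 in WT 2 and 8.67 in Tg 2. The class results below are also given for WT 1, Tg 1 and Tg 3 alone.

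Promoters of several members are printed first because the 2 classes compared below are named for the signals that these motifs serve. Each sequence is the 250 bases before the RefSeq transcription start on build GRCm38.p6, 5′ to 3′ on the strand of the gene. Capitals mark every match to an ISRE, searched on both strands as GAAA, any 2 bases and GAAA, or to a GAS, searched as TTC, any 3 bases and GAA, which reads the same on both strands. Cxcl10, Igtp, Irgm2, Gbp5 and Gbp7 are examples from the interferon-gamma class, Isg15, Ifit1 and Rsad2 from the type I class and Irf1 from the regulators. They do not mirror the class counts given below. Every interferon-gamma class gene found with a GAS match is among them, while Isg15, Ifit1 and Rsad2 have ISRE matches only. Bst2, Ifit2 and Oas1a of the type I class have a GAS match and are not printed.
Cxcl10: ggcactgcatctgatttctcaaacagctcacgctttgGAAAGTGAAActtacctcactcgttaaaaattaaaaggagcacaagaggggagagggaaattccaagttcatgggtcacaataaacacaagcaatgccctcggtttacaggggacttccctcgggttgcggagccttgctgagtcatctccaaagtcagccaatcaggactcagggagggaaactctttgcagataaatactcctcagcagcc
Igtp: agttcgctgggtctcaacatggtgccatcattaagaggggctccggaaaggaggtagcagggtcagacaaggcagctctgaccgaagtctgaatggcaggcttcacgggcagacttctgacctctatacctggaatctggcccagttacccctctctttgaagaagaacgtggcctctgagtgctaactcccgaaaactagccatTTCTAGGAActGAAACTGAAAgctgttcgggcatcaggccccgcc
Irgm2: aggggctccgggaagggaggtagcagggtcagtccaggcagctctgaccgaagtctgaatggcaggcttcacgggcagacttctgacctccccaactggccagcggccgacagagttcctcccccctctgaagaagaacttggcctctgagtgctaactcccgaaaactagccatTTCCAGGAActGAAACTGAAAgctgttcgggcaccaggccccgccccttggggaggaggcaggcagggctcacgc
Gbp5: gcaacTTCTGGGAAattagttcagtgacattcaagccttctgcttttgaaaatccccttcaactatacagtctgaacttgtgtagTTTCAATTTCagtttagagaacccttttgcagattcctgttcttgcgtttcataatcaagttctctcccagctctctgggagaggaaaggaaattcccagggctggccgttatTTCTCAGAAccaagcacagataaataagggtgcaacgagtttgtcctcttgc
Gbp7: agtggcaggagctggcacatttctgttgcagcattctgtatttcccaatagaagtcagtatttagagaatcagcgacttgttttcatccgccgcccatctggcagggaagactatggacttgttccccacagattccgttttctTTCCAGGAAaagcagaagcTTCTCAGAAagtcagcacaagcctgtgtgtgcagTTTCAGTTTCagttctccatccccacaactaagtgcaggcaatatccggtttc
Irf1: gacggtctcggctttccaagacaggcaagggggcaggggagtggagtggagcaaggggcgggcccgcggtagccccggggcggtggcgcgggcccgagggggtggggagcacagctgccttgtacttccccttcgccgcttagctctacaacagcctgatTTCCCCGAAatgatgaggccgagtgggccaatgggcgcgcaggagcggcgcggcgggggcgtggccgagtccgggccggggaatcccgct
Isg15: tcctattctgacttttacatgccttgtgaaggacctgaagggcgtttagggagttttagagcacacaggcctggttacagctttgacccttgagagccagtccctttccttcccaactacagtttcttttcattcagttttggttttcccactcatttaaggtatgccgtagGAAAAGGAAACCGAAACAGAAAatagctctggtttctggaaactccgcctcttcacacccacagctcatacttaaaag
Ifit1: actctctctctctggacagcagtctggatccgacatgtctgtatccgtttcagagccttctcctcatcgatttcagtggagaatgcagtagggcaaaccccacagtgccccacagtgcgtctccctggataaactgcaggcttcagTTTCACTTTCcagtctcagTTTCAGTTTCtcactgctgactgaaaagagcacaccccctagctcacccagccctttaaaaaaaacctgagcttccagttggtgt
Rsad2: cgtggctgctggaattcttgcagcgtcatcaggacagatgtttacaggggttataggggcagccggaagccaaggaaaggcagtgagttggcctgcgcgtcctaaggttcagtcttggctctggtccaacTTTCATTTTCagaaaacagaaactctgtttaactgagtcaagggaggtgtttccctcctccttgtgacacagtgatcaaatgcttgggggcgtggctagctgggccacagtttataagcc

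The windows lie at chr5:92348890-92349139 for Cxcl10 (minus strand), chr11:58199306-58199555 for Igtp, chr11:58214727-58214976 for Irgm2, chr3:142496684-142496933 for Gbp5, chr3:142530086-142530335 for Gbp7 and chr11:53769764-53770013 for Irf1, the last 5 on the plus strand. Those of the type I class lie at chr4:156200819-156201068 for Isg15 (minus strand), chr19:34640639-34640888 for Ifit1 (plus strand) and chr12:26456453-26456702 for Rsad2 (minus strand). Igtp and Irgm2 lie close together on chromosome 11, and their windows share an unbroken run of 55 bases. In both, 2 bases separate a GAS match from the ISRE match that follows it. Isg15 carries 3 ISRE matches in tandem, each sharing 4 bases with the next, the last of them ending 57 bases before the start. Irf1 carries a GAS match and no ISRE match, 90 to 82 bases before the start shown, which is 1 of its 2 starts in the table.

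RefSeq windows were used for 28 of the 38 members, with 33 starts in all. Member windows on a chromosome that was set aside were not used, while the shares over all windows were not restricted in this way. Among the GTPases, Gbp4 and Iigp1 have no window here. An ISRE match was present for 15 of these 28 genes, and 2.98% of all 32851 windows of the table held one. GAS matches were found for 9 of the 28 genes, against 7.02% of all windows. The 9 GTPases and chemokines with a window had an ISRE match in 8 and a GAS match in 4. The 12 type I effectors had an ISRE match in 6 and a GAS match in 3, while the 2 RNA sensors had neither. Cxcl9 had neither motif in its window. ISRE matches overlapped each other in Bst2, Gbp3, Irgm1, Isg15 and Oas1a, and a GAS match overlapped an ISRE match by 3 bases in Bst2. A match is a string of letters and not a tested site.

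No member differed between Tg and WT past the threshold of 0.05 after adjustment over all rows, and the members' adjusted p ran from 0.395 to 0.974 in limma. The background was the same: 0 of 41345 rows (0.0%) passed, with a smallest adjusted p of 0.196. At an unadjusted p under 0.05, 2 members, Mx1 and Rsad2, were lower in Tg (background 5.88% of rows) and none was higher (background 4.43%). These 2 were also the only members whose groups did not overlap, both lower in Tg, where 9.35% of all rows and 13.0% of rows above the median signal were lower without overlap and 7.36% were higher. Thus the count of separated members lies near or under the background. The difference was below 0 in 31 of 34 members, against 52.8% of all rows and 56.8% of rows above the median signal. Members were read on the same arrays and are not independent observations. Without WT 3 the count was 25 of 34, and in WT 1, Tg 1 and Tg 3 alone most differences were above 0. The median difference over the members was -0.22, beside -0.01 over all rows and -0.04 over the rows above the median signal. With 3 arrays a group, the smallest 2-sided p of an exact permutation test is 0.1.

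**Figure D1:**
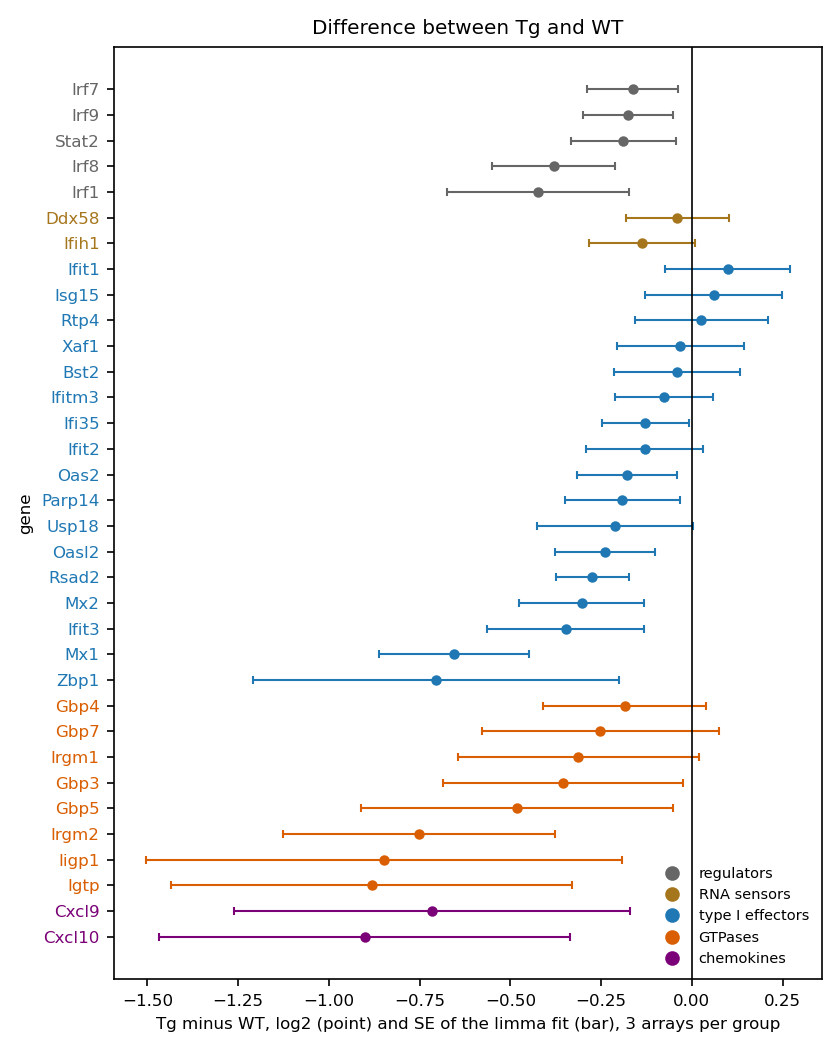
Difference between Tg and WT (log2, Tg minus WT) with its limma standard error for each of the 34 measured members, grouped by class. The points run from -0.90 for Cxcl10 to 0.10 for Ifit1, and the error bars are widest for Iigp1, Cxcl10, Cxcl9 and Igtp.

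All 5 regulators read lower in Tg, by -0.27 on average, with each difference larger than its SE and none past the threshold in limma. Irf8, an interferon-inducible factor of macrophages and dendritic cells, read 6.97, 7.07 and 7.41 in the WT arrays 1 to 3 and 7.01, 6.58 and 6.72 in the Tg arrays 1 to 3, the order used for all genes below. Tg 1 overlapped WT 1, and the difference was -0.38 ± 0.17 (SE; limma, adjusted p = 0.51). A dimmer row of Irf8 went the other way, at 0.63 ± 0.27, so its direction depends on the row. Irf1, the factor that interferon-gamma induces, read 5.93, 6.32 and 6.86 in WT and 6.03, 6.12 and 5.69 in Tg, with a difference of -0.42 ± 0.25 (limma, adjusted p = 0.60). Only WT 3 lay clearly above the Tg arrays. Irf9, the DNA-binding part of the type I complex, read 7.07, 7.37 and 7.34 in WT and 7.07, 6.99 and 7.18 in Tg (-0.18 ± 0.12; limma, adjusted p = 0.66). Its partner Stat2 differed by -0.19 ± 0.15 and Irf7, which amplifies type I interferon production, by -0.16 ± 0.13.

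Both cytosolic RNA sensors differed by less than the SE. Ifih1, the sensor of long viral RNA also known as MDA5, read 7.95, 8.19 and 8.25 in WT and 8.04, 7.77 and 8.17 in Tg (-0.14 ± 0.15; limma, adjusted p = 0.78). Ddx58, the sensor known as RIG-I, read 6.89, 6.97 and 7.14 in WT and 7.20, 6.80 and 6.87 in Tg (-0.04 ± 0.14; limma, adjusted p = 0.95). Tg 1 was the highest and Tg 2 the lowest array for Ddx58, so the groups lay across each other.

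Among the type I effectors, 14 of 17 differences were below 0, with a median of -0.18. Mx1, of the dynamin-like GTPase family, gave the smallest p of all members. It read 2.21, 2.41 and 2.95 in WT and 2.02, 1.86 and 1.72 in Tg, all near or under the median signal of 2.67 of all rows. The difference was -0.66 ± 0.21 (limma, adjusted p = 0.39), and every Tg array lay below every WT array. Rsad2, or viperin, which halts viral RNA synthesis, read 6.18, 6.34 and 6.31 in WT and 6.04, 5.90 and 6.06 in Tg. The groups lay close, with WT 1 just above Tg 3, and the difference was -0.27 ± 0.10 (limma, adjusted p = 0.45).

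Mx2, the other Mx gene of the mouse, read 3.33, 3.43 and 3.40 in WT and 2.74, 3.13 and 3.39 in Tg (-0.30 ± 0.17; limma, adjusted p = 0.59). Here the Tg arrays were the spread group, and Tg 3 fell among the WT arrays. Ifitm3, which stops viruses at the endosome, read 9.69, 9.55 and 9.70 in WT and 9.82, 9.47 and 9.43 in Tg (-0.08 ± 0.13; limma, adjusted p = 0.87). The groups overlapped fully.

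Isg15 and Ifit1, shown because they are common readouts of type I interferon and picked after their values were seen, are 2 of the 3 effectors with a difference above 0. Isg15, the ubiquitin-like modifier, read 4.98, 4.88 and 5.20 in WT and 5.41, 4.74 and 5.08 in Tg, with Tg 1 highest and Tg 2 lowest (0.06 ± 0.19). Ifit1, which recognises viral RNA ends, read 5.47, 5.96 and 6.00 in WT and 5.99, 5.73 and 6.00 in Tg (0.10 ± 0.17). Only WT 1 stood apart for Ifit1, below the other 5 arrays. Its relatives Ifit2 and Ifit3 differed by -0.13 ± 0.16 and -0.35 ± 0.22.

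For the RNA-cutting pathway, Oas2, which makes the messenger that activates RNase L, differed by -0.18 ± 0.14 and Oasl2, a relative that binds RNA, by -0.24 ± 0.14. Usp18, which removes Isg15 from proteins and damps the type I receptor, differed by -0.21 ± 0.22. Bst2 or tetherin, which holds budding virus at the membrane, differed by -0.04 ± 0.17, Xaf1, a proapoptotic protein, by -0.03 ± 0.18, and Rtp4, a chaperone with antiviral activity, by 0.03 ± 0.18. Ifi35 differed by -0.13 ± 0.12, while a dimmer row of it went the other way at 0.40 ± 0.32. Parp14, a mono-ADP-ribosyltransferase, differed by -0.19 ± 0.16. In 8 of the 17 effectors the difference was smaller than its SE.

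Zbp1, a sensor of Z-form nucleic acid that triggers necroptosis, had the widest span of the effectors in WT. It read 4.90, 6.03 and 7.04 in WT and 5.56, 5.17 and 5.13 in Tg, a 4.41-fold span from WT 1 to WT 3 with every Tg array between WT 1 and WT 2. Ifit2, Ifi35 and Parp14 shared that layout over smaller spans. The difference of Zbp1 was -0.70 ± 0.50 (limma, adjusted p = 0.67).

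The interferon-gamma GTPases and chemokines had spans over the 3 WT arrays from 0.896 to 2.78, beside Tg minus WT differences from -0.18 to -0.90. In each of them the span was larger than the difference. A span and a difference of means are unlike measures. For the effectors too the median span in WT, 0.466, was larger than the median difference of -0.18. All 10 GTPases and chemokines read upward from WT 1 over WT 2 to WT 3, array numbers that carry no order of their own. Of the 10, 9 had all Tg arrays between WT 1 and WT 2. Cxcl10, a ligand of the T cell receptor Cxcr3, read 4.25, 5.58 and 6.69 in WT and 4.71, 4.73 and 4.38 in Tg. WT 3 was 5.41-fold above WT 1, while the Tg arrays lay within 0.35 of each other. The difference was -0.90 ± 0.57 (limma, adjusted p = 0.62). Cxcl9, the other Cxcr3 ligand here, read 8.53, 9.62 and 10.89 in WT and 9.06, 9.04 and 8.78 in Tg (-0.72 ± 0.55; limma, adjusted p = 0.69). Its span in WT was 5.12-fold.

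Igtp (Irgm3) and Irgm2 belong to the regulatory GTPases that guard the cell's own membranes, and Iigp1 (Irga6) to the effector GTPases that break up the vacuoles of parasites. Igtp read 5.46, 6.34 and 7.83 in WT and 5.75, 5.62 and 5.61 in Tg, so the Tg arrays were within 0.14 of each other while WT spanned 5.19-fold (-0.88 ± 0.55; limma, adjusted p = 0.62). Iigp1 read 6.98, 8.74 and 9.76 in WT and 7.84, 7.76 and 7.34 in Tg (-0.85 ± 0.65; limma, adjusted p = 0.69). Its 6.87-fold span from WT 1 to WT 3 was the widest of the members. Irgm2 had the smallest p of the class, with 6.35, 7.28 and 7.93 in WT and 6.52, 6.50 and 6.28 in Tg (-0.75 ± 0.37; limma, adjusted p = 0.54). Irgm2 is the exception to the pattern, since Tg 3 lay below WT 1.

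**Figure D2:**
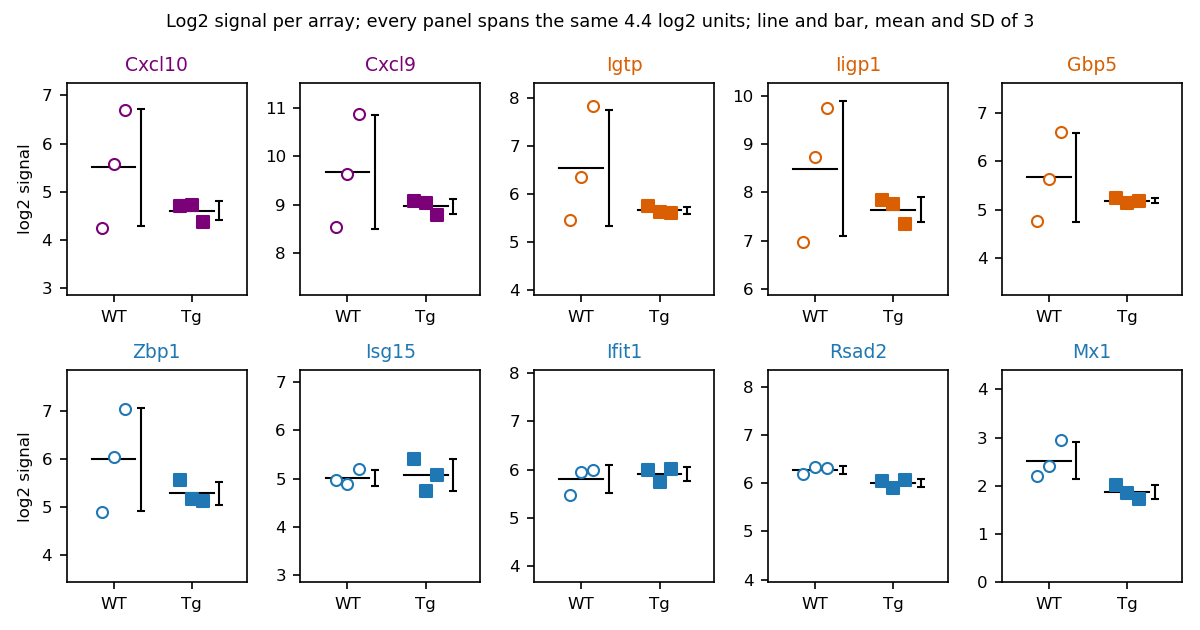
Log2 value in each array for 10 members, from left to right WT 1 to WT 3 (open circles) and Tg 1 to Tg 3 (filled squares), with the group mean (line) and SD (bar, n = 3). Cxcl10, Cxcl9, Igtp, Iigp1, Gbp5 and Zbp1 read upward from WT 1 to WT 3 with the Tg arrays close together at the lower levels, while Isg15, Ifit1 and Rsad2 show no such layout. Mx1, at a dim signal, also reads upward over the WT arrays, with every Tg array below every WT array.

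Guanylate-binding proteins, which coat and lyse pathogen vacuoles and feed inflammasomes, showed the same layout. Gbp5 read 4.75, 5.63 and 6.61 in WT and 5.23, 5.14 and 5.17 in Tg, a 3.62-fold span in WT beside an SD of 0.047 in Tg. The difference was -0.48 ± 0.43 (limma, adjusted p = 0.73). Gbp7 read 8.09, 8.83 and 9.44 in WT and 8.42, 8.72 and 8.47 in Tg (-0.25 ± 0.33; limma, adjusted p = 0.82). Gbp3, Gbp4 and Irgm1 differed by -0.35 ± 0.33, -0.18 ± 0.22 and -0.31 ± 0.33, with 2.58-fold, 1.86-fold and 2.64-fold spans in WT. Members of these GTPase families resemble each other closely, so a probe of a row may also detect a relative.

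**Figure D3:**
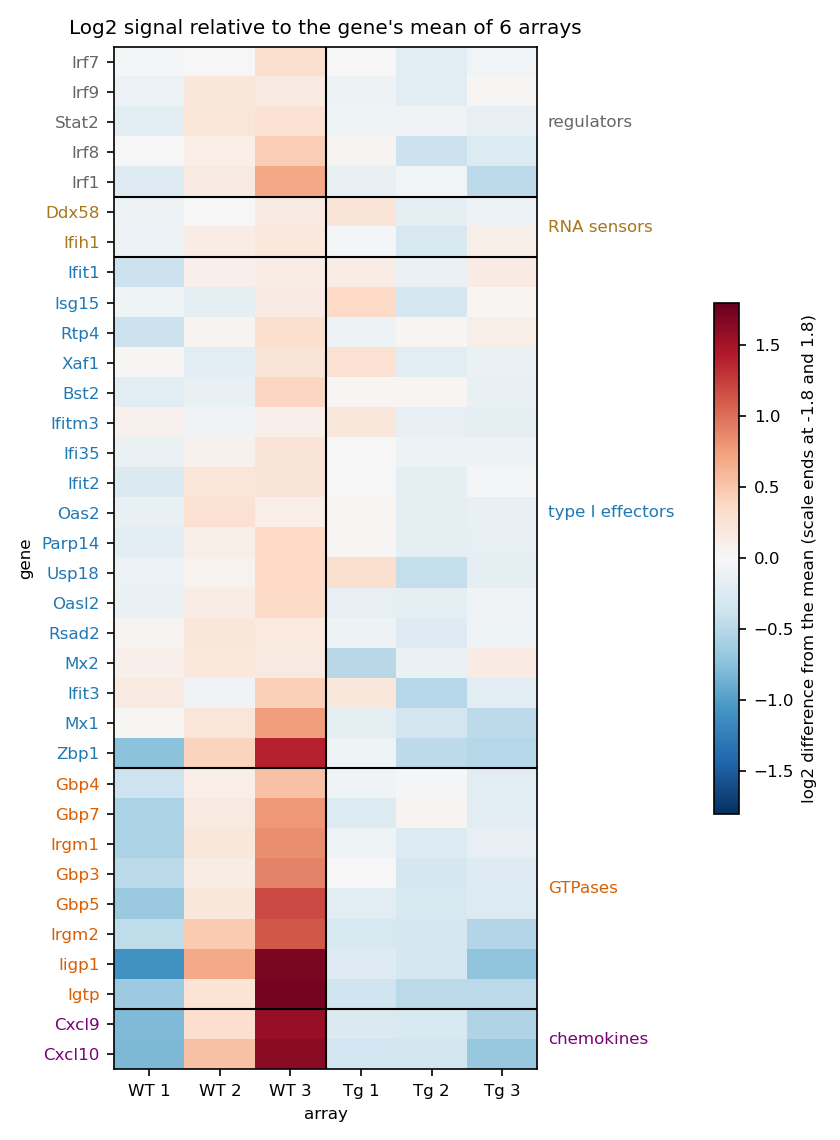
Heat map of the 34 members (rows, by class) over the 6 arrays, each as log2 value minus the gene's mean over the arrays. The GTPase and chemokine rows are lowest in WT 1 and highest in WT 3, apart from Irgm2, which is lowest in Tg 3, and the effector rows are pale except for Zbp1 and Mx1.

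Counted over the classes, WT 3 was the highest array in 10 of 10 GTPases and chemokines and in 10 of 17 effectors (19.8% of all rows). WT 1 was the lowest in 9 of 10 and in 7 of 17 (13.2% of rows). Both held at the same time in 9 of 10 and in 6 of 17, against 3.13% of all rows and 2.37% of rows above the median signal. The order WT 1, WT 2, WT 3 upward was seen in 10 of 10 and 10 of 17 (17.8% of rows). All Tg arrays lay between WT 1 and WT 2, with WT 3 highest, in 9 of 10 and in 4 of 17, where 1.17% of all rows did. WT 3 exceeded WT 1 by 1 or more in 9 of 10, the exception being Gbp4, and in 1 of 17 effectors, which was Zbp1 (2.67% of rows). It exceeded the highest Tg array by 0.5 or more in 10 of 10 and in 2 of 17 (4.63% of rows). These members were chosen with earlier results of the same arrays known, so the counts describe the list and carry no test.

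The classes also differed in the spread inside the groups. A wider spread in WT was also seen in the class mean of the further interferon genes given below. The SD was larger in WT than in Tg for 10 of 10 GTPases and chemokines and 10 of 17 effectors, beside 49.4% of all rows. Among the GTPases and chemokines the SD ran from 0.449 to 1.41 in WT and from 0.047 to 0.267 in Tg, and the WT SD was more than 3 times the Tg SD in all 10, in 5 of the 17 effectors and in 10.6% of all rows. The median ratio of the SDs was 5.95 in this class, 1.93 in the effectors and 0.986 over all rows. SDs from 3 arrays are imprecise, and the difference in spread was not tested.

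**Figure D4:**
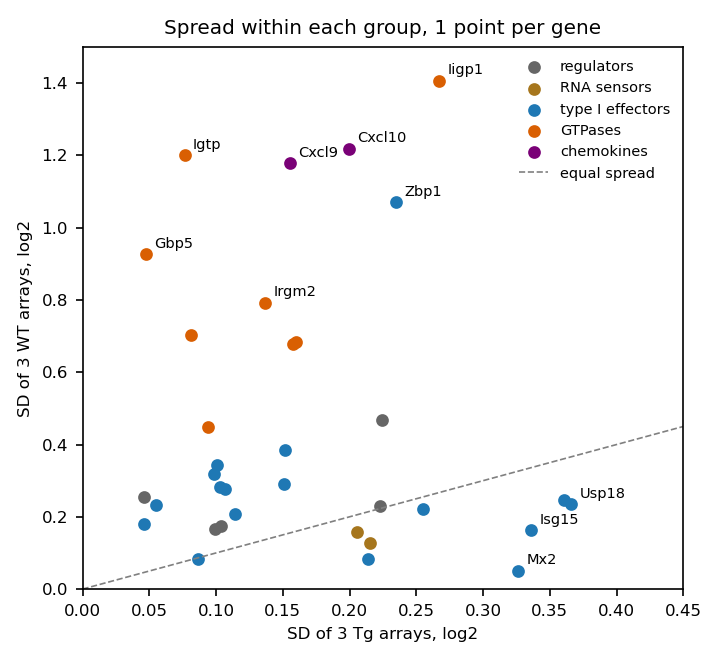
SD over the 3 Tg arrays (x axis, log2) against SD over the 3 WT arrays (y axis, log2, on a wider scale) for the 34 members, coloured by class, with a dashed line of equal SD. The 10 GTPases and chemokines lie above the line, with WT SDs from 0.449 to 1.41 and Tg SDs up to 0.267, and the effectors lie on both sides of the line.

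As class means, each gene taken relative to its mean over the 6 arrays, the GTPases and chemokines read -0.65, 0.30 and 1.19 over the WT arrays and -0.20, -0.25 and -0.40 over the Tg arrays. The Tg minus WT difference was -0.57, with an SD over arrays of 0.92 in WT and 0.10 in Tg. The 17 effectors read -0.13, 0.08 and 0.34 in WT and 0.03, -0.21 and -0.11 in Tg, a difference of -0.20 with SDs of 0.24 and 0.12. The first class thus lay lower in Tg than the second by a further 0.37, which is less than the WT spread. In the first class WT 1 lay below all 3 Tg arrays, and WT 2 and WT 3 above them.

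WT 3 and WT 1 decide the size of these differences. Without WT 3 the difference of the GTPases and chemokines was -0.11 and that of the effectors -0.07, and the gap between the classes was -0.04. Without WT 1 they were -1.03, -0.31 and -0.72, and 18 members then had an unadjusted p under 0.05 (12.3% of all rows did), 25 had groups apart (31.2% of rows) and none passed the adjusted threshold in limma. In WT 1, Tg 1 and Tg 3 alone, the arrays with low Spink8 and low summed tract signal, all signs turned: 0.34 for the GTPases and chemokines, 0.093 for the effectors and 0.25 for the gap. That comparison rests on 1 WT mouse.

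**Figure D5:**
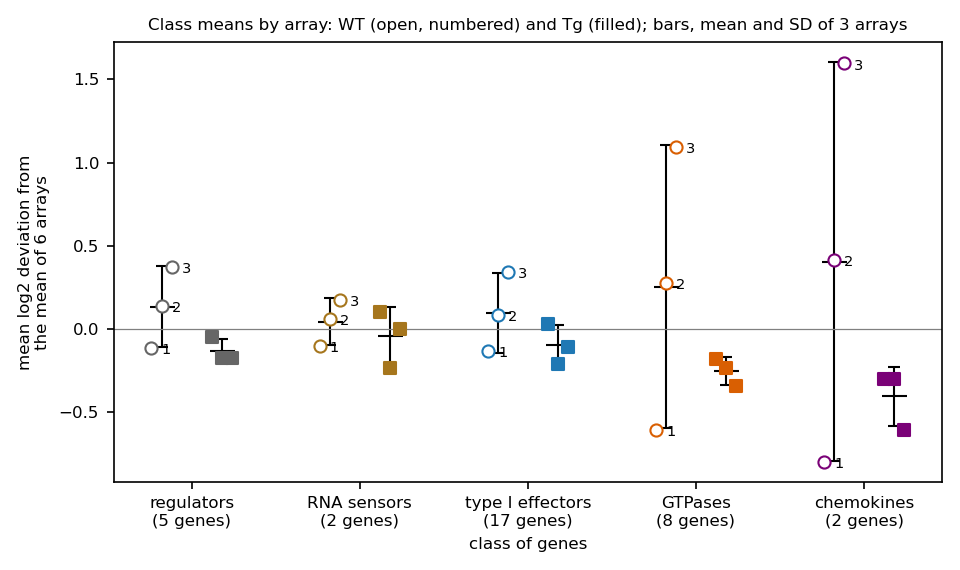
Mean over the members of each class, relative to each gene's mean over the 6 arrays (log2), for WT 1 to WT 3 (open, numbered) and Tg 1 to Tg 3 (filled), with bars for the mean and SD of 3 arrays. The GTPases run from -0.61 to 1.09 and the chemokines from -0.80 to 1.60 across the WT arrays, whereas the effectors run from -0.13 to 0.34.

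Markers of the cell types of the tissue were read on the same arrays. Counts below stand beside the shares of all rows that were lower in Tg (52.8%), lower without overlap (9.35%) and higher without overlap (7.36%). Of rows above the median signal, 56.8% were lower and 13.0% lower without overlap. All macrophage and mast cell markers lay above that median. Of the 15 T and natural killer cell markers, 13 were measured and 12 were lower in Tg, 1 of them (Gzmb) at an unadjusted p under 0.05 and none with groups apart. Their summed linear signal was 231 to 954 in WT and 227 to 376 in Tg, and their mean relative level was -0.60, 0.49 and 1.13 over the WT arrays and 0.03, -0.40 and -0.64 over the Tg arrays. Thus WT 3 was highest and WT 2 next in both the markers and the GTPase class, while WT 1 was lowest in the GTPase class and lay near Tg 3 in the markers. Cd3d and Klrb1c were below the median signal. Macrophage markers were lower in Tg for 10 of 10, with 8 having groups apart and sums of 10772 to 11643 in WT and 9492 to 9695 in Tg. All 6 mast cell markers were lower in Tg with groups apart. The 5 conventional dendritic cell markers were all lower in Tg, 1 with groups apart, and their mean relative level of -0.17, 0.06 and 0.52 in WT and -0.14, -0.10 and -0.18 in Tg was highest in WT 3, as in the GTPase class. The 8 white adipocyte markers were all higher in Tg, 6 with groups apart, and ran downward over the WT arrays, with WT 3 lowest at -0.39. The 5 endothelial markers were all higher in Tg, 2 with groups apart, and were lowest in WT 3 at -0.49. B cell markers were lower in Tg for 5 of 5, 1 with groups apart. Their mean relative level was -0.06, 0.45 and 0.45 in WT and 0.41, -0.84 and -0.41 in Tg. Of 6 neutrophil markers, 4 were lower in Tg, 3 had groups apart and 3 were below the median signal. Their mean ran downward over the WT arrays, at 0.32, 0.17 and -0.07, with -0.10, -0.30 and -0.03 in Tg. Of 5 mesothelial markers, 1 was lower in Tg and none had groups apart. Plasmacytoid dendritic cell markers, from cells known for type I interferon, summed to 925 to 1108 in WT and 960 to 976 in Tg, with Siglech, Klk1 and Ccr9 below the median signal. Of these 6 markers, 3 were lower and 3 higher in Tg. The mean relative level was -0.27, 0.06 and 0.36 in WT and 0.03, -0.14 and -0.03 in Tg. As in the GTPase class, WT 1 was lowest, WT 3 highest and the Tg arrays lay between WT 1 and WT 2. The brightest gene of this list, Bst2, is itself a member and read 8.82, 8.89 and 9.40 in WT and 9.05, 9.05 and 8.88 in Tg. The sum and the mean are thus not independent of the members. The part of these cells in the results was not tested, and in whole tissue fewer cells of a type and less RNA per cell cannot be told apart.

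Around the members stands the pathway that makes and relays interferon. Ifng itself was dim, at 1.67, 2.00 and 2.60 in WT and 1.93, 1.83 and 1.65 in Tg (-0.29 ± 0.24; limma, adjusted p = 0.71). WT 3 was again the highest array. Its receptor chain Ifngr1 read 9.59, 9.59 and 9.55 in WT and 9.55, 9.57 and 9.68 in Tg (0.02 ± 0.09; limma, adjusted p = 0.96). The type I chain Ifnar1 read 9.13, 9.09 and 9.10 in WT and 8.90, 9.02 and 9.01 in Tg, lower in Tg without overlap but by only -0.13 ± 0.09 (limma, adjusted p = 0.65). Irf5 had no row of its own.

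A list of 72 further interferon genes had 64 with a row of their own. Of these, 50 differences were below 0 (52.8% of all rows and 56.8% of rows above the median signal) and 14 above, and none passed the threshold in limma. Without overlap, 13 were lower in Tg and 2 higher (background 9.35% and 7.36% of all rows). Most of the list, 56 of 64, lay above the median signal, where 13.0% of rows were lower without overlap. At an unadjusted p under 0.05, 6 of the 64 were lower in Tg and none was higher (background 5.88% and 4.43% of rows). Of these 6, 3 belong to the sensing of nucleic acid ahead of type I interferon, a group in which 10 of 11 differences were below 0, read against the same shares. Ikbke, a kinase that activates Irf3, read 6.55, 6.58 and 6.80 in WT and 6.24, 6.16 and 6.36 in Tg, the smallest p of the list (-0.39 ± 0.12; limma, adjusted p = 0.38). Every Tg array lay below every WT array, and so they did for Irf3 itself (-0.19 ± 0.10), for the DNA sensor Cgas (-0.43 ± 0.18) and for the endosomal RNA receptor Tlr7 (-0.32 ± 0.13). Sting1, the adaptor of Cgas, read 7.50, 7.88 and 8.05 in WT and 7.52, 7.30 and 7.41 in Tg, where Tg 1 reached WT 1 (-0.40 ± 0.16; limma, adjusted p = 0.47).

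The other genes of this list with small p were spread over roles. Trim25, a ubiquitin ligase that activates the sensor Ddx58, read 8.41, 8.40 and 8.30 in WT and 7.97, 8.08 and 8.19 in Tg (-0.29 ± 0.10; limma, adjusted p = 0.44). Oas3, an oligoadenylate synthetase, differed by -0.33 ± 0.12 and Socs3, a feedback inhibitor of cytokine signalling, by -0.59 ± 0.24, with 3.57 in WT 1 inside the Tg range of 3.29 to 3.72. Isg20, an RNA exonuclease, was apart the other way, with 7.23, 7.10 and 7.13 in WT and 7.48, 7.30 and 7.32 in Tg (0.21 ± 0.10; limma, adjusted p = 0.53). Ifna2, a type I interferon gene, was lower in Tg without overlap at a dim signal (-0.20 ± 0.10).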

How the data were processed

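RNA of 6 eWAT arrays, 3 WT and 3 Tg, was measured on Affymetrix whole-transcript arrays with 1 colour. The values, as deposited, are log2 signals. RMA and limma are named per the submitters' processing notes, with versions, filters and build not given in the sources used here. RMA normalizes between arrays, so a change in total RNA cannot be seen, and low values are compressed. Depth does not apply to arrays; their number, 3 per group, limits the precision.

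All 41345 rows were compared, Tg with WT, by the moderated 2-sided test of limma (version 3.58.1, R 4.3.3) with neither covariate nor filter, with Benjamini-Hochberg adjustment over all rows and a threshold of 0.05; the procedure was tested on simulated data. The platform annotation named 1 gene for 23521 rows, several for 1814 and none for 16010. Symbols were matched through RefSeq, assembly GRCm38.p6, which also gave the promoter windows. Class means are descriptions without a test.

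The members, lists, classes and motifs were chosen with earlier results of these data known. Values of every array are printed for members whose groups did not overlap, for the up to 3 smallest p, the largest difference and the highest mean in each class and for the pathway genes Ifng, Ifngr1 and Ifnar1 (a further gene of the rule is not reported here); of the other interferon genes, up to 10 with an unadjusted p under 0.05 or with groups apart are named by smallest p. Gbp5, Isg15 and Ifit1 were added after their values were seen. Alternatives left out each array, took the replicate number as a block, changed the scaling (median, quantile, cyclic loess), filtered dim rows, changed the variance model, weights, rows per gene and classes, and kept only WT 1, Tg 1 and Tg 3.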

Additional observations from a re-analysis of the deposited data

How the results depend on the processing

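Directions of the class differences and of the median member held under every alternative that kept at least 5 arrays. With only WT 1, Tg 1 and Tg 3 they reversed: 0.15 for the median member, 0.093 for the effectors, 0.34 for the GTPases and chemokines and 0.25 for the gap between them. Leaving out 1 array gave -0.33 to -0.08, -0.31 to -0.07, -1.03 to -0.11 and -0.72 to -0.04 for these 4 values. An unadjusted p under 0.05 was then found for 1 to 18 members and 1 to 17 other interferon genes, beside 7.51% to 12.3% of all rows. Groups were apart in 2 to 25 members. These were 25 without WT 1, 9 without Tg 1 and 4 without Tg 3, where 31.2%, 26.9% and 26.8% of all rows were apart. In each case 0 rows passed the threshold of 0.05. Members at an unadjusted p under 0.05 numbered 1 with median centring and 1 with only rows above the median signal. Of the rows tested there, 10.8% and 14.9% had such a p. Members with groups apart numbered 1 among rows above the median signal and 22 with only WT 1, Tg 1 and Tg 3, where 67.7% of all rows were apart. Of the 64 other interferon genes, 6 had an unadjusted p under 0.05 in the comparison as reported. With median centring, quantile normalization and cyclic loess these numbered 3, 3 and 2. The share of all rows was 10.3% as reported and 10.8%, 10.3% and 10.3% in these 3 settings.

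The replicate numbers did not pair the samples, with r of -0.04, 0.01 and -0.04 between the deviations of same-numbered arrays. With the replicate number as a block, 1 member had an unadjusted p under 0.05, beside 9.76% of all rows, and 0 rows passed the threshold.

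Of 461 alternative values of 29 named genes, 18 changed sign. With only WT 1, Tg 1 and Tg 3 these were Irf9 0.064, Gbp7 0.36, Iigp1 0.61, Igtp 0.23, Irgm2 0.047, Cxcl9 0.40, Cxcl10 0.29, Ddx58 0.15, Ifih1 0.16, Zbp1 0.45 and Ifng 0.12. Irf8 was 0.13 as a mean over its rows, Gbp7 0.076 without WT 3 (range on leaving out 1 array -0.60 to 0.076) and Ifngr1 -0.017 without Tg 3 (range -0.017 to 0.046). Ddx58 was 0.030 without WT 3, 0.039 without Tg 2 and 0.0044 without Tg 3 (range -0.16 to 0.039), and 0.025 with median centring. No named gene passed the threshold, with a smallest adjusted p of 0.21 in limma, and the cause of the changes was not tested.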

Other observations

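Some interferon-gamma targets outside the member list, chosen here after their values were seen, had the layout of the GTPases and chemokines. Gbp10 read 5.93, 7.79 and 9.50 over the WT arrays and 6.79, 6.51 and 6.83 over the Tg arrays, an 11.9-fold span in WT (-1.03 ± 0.82 SE). Gbp8 read 2.70, 4.73 and 5.56 in WT and 3.47, 3.01 and 2.67 in Tg, a 7.27-fold span (-1.28 ± 0.70). Tg 3 lay just below WT 1 for Gbp8. Other genes of the same list lacked the layout. Gbp6 read 1.60 in WT 1, 1.49 in WT 2 and less in WT 3. Cxcl11 read 2.11, 2.61 and 2.24 in WT, and Ido1 read 1.64, 1.63 and 1.95 with 2.63 in Tg 2. Gbp9 rose over the WT arrays, at 7.53, 7.88 and 8.12, but Tg 1 at 8.04 lay above WT 2. Its other Tg arrays read 7.73 and 7.77 (0.00 ± 0.18). Gbp8 and Gbp10 belong to the guanylate-binding proteins, whose close resemblance makes single rows uncertain.

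Genes of antigen presentation by MHC class I were mixed. Tap1, a subunit of the peptide transporter, read 6.67, 7.40 and 8.00 in WT and 7.10, 6.82 and 6.71 in Tg. Psmb9, an immunoproteasome subunit, read 5.49, 5.92 and 6.86 in WT and 5.79, 5.67 and 5.54 in Tg, and Nlrc5, the transactivator of class I genes, read 4.86, 5.55 and 6.03 in WT and 5.01, 4.98 and 4.85 in Tg. Psmb8 and Psmb10, the other immunoproteasome subunits, read 7.04, 7.43 and 8.16 and 7.17, 7.31 and 8.01 in WT, and the heavy chain gene H2-K1 read 10.22, 10.48 and 10.76. WT 3 was the highest array in these 6 genes. B2m, the light chain of class I, differed by 0.05 ± 0.09 and Tapbp, or tapasin, by 0.02 ± 0.18. Ciita, the transactivator of class II genes, read 6.07, 6.68 and 7.30 in WT and 6.45, 6.51 and 6.57 in Tg, with all Tg arrays between WT 1 and WT 2.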
